A study of Saccharomyces cerevisiae with 6 samples.

Results

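The genes described here carry nitrogen sources into yeast cells or prepare them for use, apart from DAL80, which encodes a repressor. The set comprises 10 genes, taken by name from a table of 18646 transcriptional units. These are the urea permease gene DUR3, the allantoin pathway genes DAL1, DAL4, and DAL5, the repressor gene DAL80, and the general amino acid permease gene GAP1. The others are the ammonium permease genes MEP1, MEP2, and MEP3, and the peptide transporter gene PTR2. The list was taken by gene name, with no threshold on a measured value, but it was drawn up when earlier results of these data were known. RNA-seq was performed in the budding yeast strain W303, on 3 samples of WT cells and 3 of Δset2 cells, which otherwise share the W303 background. The sources differ on the deletion, which is a set2::His3 knockout in the labels and a KanMX replacement in the methods of the study. Set2 is the methyltransferase that places methyl groups on lysine 36 of histone H3. Each sample came from a separate colony grown in YPDA, a rich glucose medium with yeast extract, peptone, and adenine, to an OD660 of 0.6, and the labels do not say whether the colonies of Δset2 came from separate deletion events. Libraries of 76-bp single reads from rRNA-depleted RNA held between 5135226 and 22536840 counted reads, with the smallest and the largest library both in the Δset2 group. The deleted gene itself had 435, 298, and 459 reads in WT and 20, 9, and 32 in Δset2, and all tested units had a median log2 change of -0.0040.

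Yeast cells use rich nitrogen sources first. While these are present, the GATA factors Gln3 and Gat1, which activate genes for the uptake and breakdown of poorer sources, are held back by Ure2, and this repression is known as nitrogen catabolite repression. Dal80 and Gzf3 are repressors that bind the same GATA sequences. PTR2 is controlled differently in large part, through the repressor Cup9, which the ubiquitin ligase Ubr1 marks for degradation when dipeptides enter the cell, and through the amino acid sensor Ssy1 at the plasma membrane, which signals to the activators Stp1 and Stp2.

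The sequences before the annotated starts of 4 of the genes are shown because they carry these GATA sites: the pair that rose in Δset2 (PTR2 and DUR3) and the most abundant genes that did not pass the test (GAP1 and MEP2). Each is the 300 bases before the start of the unit in sacCer3, read 5′ to 3′ on the strand of the gene from the RefSeq R64 genome, at chrXI:615184-615483 (plus strand), chrVIII:75042-75341 (minus strand), chrXI:514702-515001 (plus strand), and chrXIV:356877-357176 (plus strand). Capitals mark GATAA and GATAAG on either strand, so a site on the other strand reads TTATC or CTTATC, and every GATAAG also counts as a GATAA.
PTR2: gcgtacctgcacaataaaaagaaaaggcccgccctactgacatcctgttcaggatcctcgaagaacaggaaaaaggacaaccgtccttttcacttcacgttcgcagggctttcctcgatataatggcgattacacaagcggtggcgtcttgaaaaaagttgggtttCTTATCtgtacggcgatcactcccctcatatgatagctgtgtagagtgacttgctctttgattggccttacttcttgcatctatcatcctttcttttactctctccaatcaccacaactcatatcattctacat
DUR3: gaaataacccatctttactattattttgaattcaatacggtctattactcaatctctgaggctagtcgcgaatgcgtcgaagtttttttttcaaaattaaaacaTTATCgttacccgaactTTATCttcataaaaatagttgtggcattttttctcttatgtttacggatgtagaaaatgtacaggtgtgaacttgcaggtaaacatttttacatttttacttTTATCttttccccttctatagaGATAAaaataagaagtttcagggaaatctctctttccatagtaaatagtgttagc
GAP1: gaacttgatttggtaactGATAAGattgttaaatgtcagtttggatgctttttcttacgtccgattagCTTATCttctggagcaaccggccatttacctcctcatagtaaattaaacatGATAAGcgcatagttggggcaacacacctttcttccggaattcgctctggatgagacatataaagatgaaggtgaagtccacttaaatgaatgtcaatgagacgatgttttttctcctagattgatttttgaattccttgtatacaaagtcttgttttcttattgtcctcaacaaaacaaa
MEP2: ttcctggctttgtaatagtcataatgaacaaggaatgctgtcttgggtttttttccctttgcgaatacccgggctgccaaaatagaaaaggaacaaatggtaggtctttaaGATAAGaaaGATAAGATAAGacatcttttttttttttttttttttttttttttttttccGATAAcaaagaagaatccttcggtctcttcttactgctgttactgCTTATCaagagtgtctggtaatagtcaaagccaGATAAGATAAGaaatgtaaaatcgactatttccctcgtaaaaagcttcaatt

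Of the 10 genes, 7 had a GATAAG within these 300 bases, compared with 14.4% of 6663 promoters of protein-coding units of the same length. The ammonium permease genes MEP2 and MEP3 had 6 and 5, while GAP1 and DAL80 each had 3. PTR2 had a single GATAAG, and DUR3 had 4 GATAA but 0 GATAAG. The annotated units of DUR3 and DAL5 start 797 and 1503 bases before the coding sequence, so their windows lie far from it. In the 500 bases before the coding start, all 10 genes had a GATAAG, compared with 22.8% of 5987 genes, with DUR3 and PTR2 at 1 each, the fewest among the 10. These are matches of letters only, in genes picked for their role in nitrogen use, and they were not tested.

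How well each gene could be measured was examined next. Reads were counted without regard to strand, and a read that touched more than 1 unit was discarded, so only the bases of a unit that no other unit covers give reads freely. PTR2 (YKR093W, chromosome XI, 615484 to 617740, plus strand) shares no base with another unit. Of the DUR3 unit (YHL016C, chromosome VIII, 71937 to 75041, minus strand) 89.9% of the bases were its own, of MEP3 90.7%, of GAP1 84.7%, of DAL5 78.9%, and of MEP2 71.5%. DAL80 kept 56.6%. In contrast, DAL1, which encodes allantoinase, kept 396 of 1459 bases, DAL4, which encodes the allantoin permease, 232 of 2033 bases, and MEP1, a further ammonium permease gene, 122 of 2025 bases. Noncoding units annotated on the opposite strand lie over these genes, among them SUT195 and XUT_9F-202 over DAL1, SUT614 and XUT_9R-183 over DAL4, and SUT128 and XUT_7F-324 over MEP1. MEP1 had 1 read in WT sample 1 and 0 reads in the 5 other samples, which says nothing about the level of its mRNA outside those 122 bases.

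**Figure D1:**
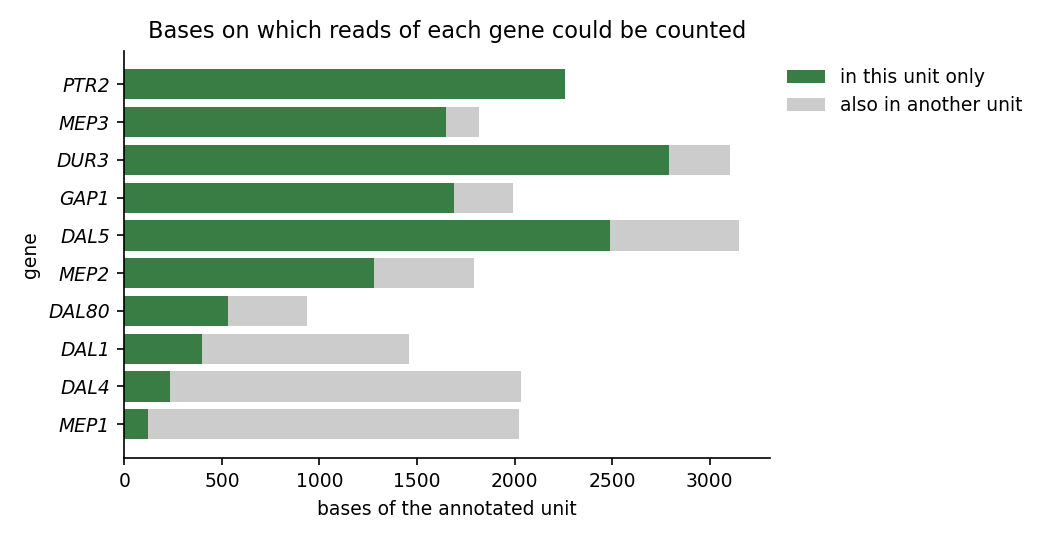
Bases of each annotated unit (horizontal axis) that no other unit covers (green) or that another unit also covers (grey), for the 10 genes. All 2257 bases of PTR2 were countable, compared with 122 of 2025 for MEP1.

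The genes fell into an abundant and a scarce set in rich medium. Levels were taken as CPM (read counts brought to a common library size, here after TMM scaling) per kilobase of own bases. In WT samples, GAP1 was highest at 450 ± 29.8 CPM per kilobase (SD, n = 3), followed by PTR2 at 312 ± 22.2 (SD, n = 3), MEP2 at 151 ± 21.3 (SD, n = 3), and MEP3 at 65.1 ± 4.83 (SD, n = 3). Among 5070 tested protein-coding units, these 4 stood at percentiles 95.6, 93.7, 88.4, and 77.1 by WT level, and no neighbours among the 4 overlapped between samples. The other genes lay more than an order of magnitude lower than MEP2: DAL4 at 6.65 ± 0.616, DAL5, which encodes the allantoate permease, at 6.002 ± 1.38, DAL80 at 4.49 ± 0.355, and DUR3 at 4.48 ± 0.840 CPM per kilobase (SD, n = 3 each), all at or below percentile 12.5. The samples of DAL4 overlapped with those of DAL5, and those of DAL80 with those of DUR3. DAL1 was lower again, at 1.67 ± 0.625 CPM per kilobase (SD, n = 3). With the full unit length as divisor, the level of DAL4 was 0.759 CPM per kilobase, so that its place in the order went from the fifth to 8 of 10, and no other gene moved by more than 2 places. In Δset2 samples, the upper order changed, since PTR2 stood first at 560 ± 46.4 CPM per kilobase and GAP1 followed at 410 ± 58.5 (SD, n = 3 each), without overlap.

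**Figure D2:**
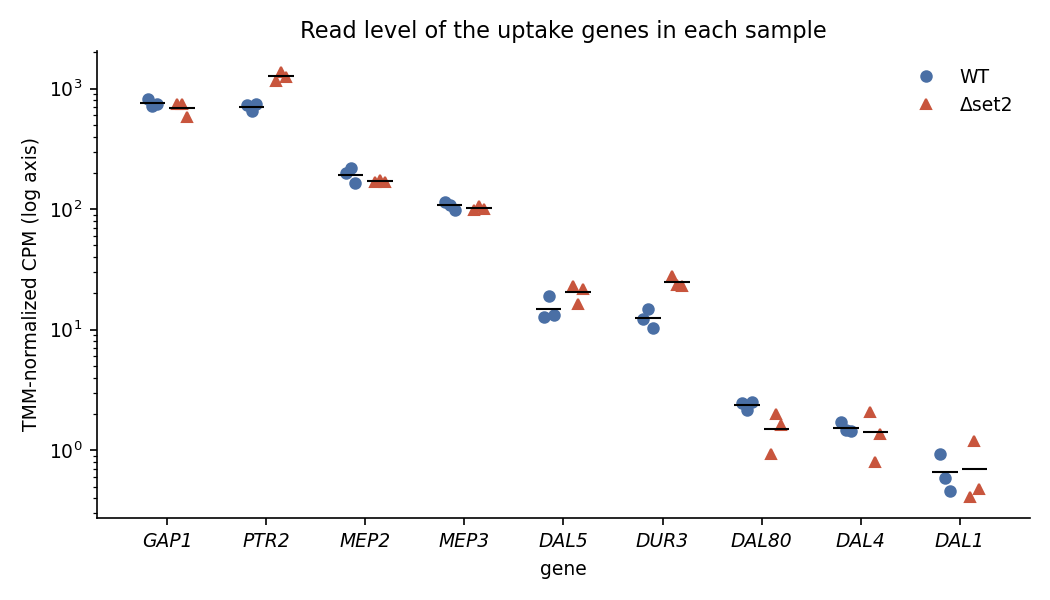
TMM-normalized CPM on a log axis (not scaled to length) for each of the 3 WT samples (circles) and 3 Δset2 samples (triangles), with a line at each group mean, for the 9 genes with reads in every sample. PTR2 rose from a WT mean of 704 to 1264 CPM and DUR3 from 12.5 to 24.9, while GAP1, MEP2, and MEP3 overlapped between groups.

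PTR2 and DUR3 were the genes that passed the thresholds of the test, and both were higher in Δset2. Of the 10 genes, 8 had enough reads for the test (filterByExpr), and DAL1 and MEP1 did not. Of these 8, 2 passed the thresholds, a fold change of more than 1.5 at an adjusted P under 0.05 (the quasi-likelihood test of edgeR with Benjamini-Hochberg adjustment over all tested units). Both were higher in Δset2, compared with 2.84% of the 5317 tested units that passed in that direction, a share to which genes listed with results known cannot be held as a test. None passed as lower (0 of 8 with edgeR and with DESeq2, against 0.733% of all tested units). At an unadjusted P under 0.05 there were 4 of 8, DUR3, PTR2, and DAL5 on the higher side and DAL80 on the lower, against 23.6% of all tested units in either direction. The median log2 change of the 8 genes was -0.07. The samples of both groups did not overlap for 3 of the 8 (27.9% of all tested units), with DUR3 and PTR2 higher (14.1% of all tested units were so) and DAL80 lower (13.8%). For any 1 gene, 3 samples a group limit the exact permutation P to 0.1 or more.

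PTR2 encodes the transporter that brings di- and tripeptides into the cell. It had 724, 646, and 740 CPM in WT samples 1, 2, and 3 and 1163, 1372, and 1257 CPM in Δset2 samples 1, 2, and 3. Every Δset2 sample lay well above every WT sample, and the spread within groups was small. In RNA from whole cultures, more cells expressing a gene and more RNA per cell cannot be told apart. The log2 change was 0.85 (SE 0.11, edgeR adjusted P = 0.0021), a 1.80-fold rise with a 95% interval of 1.52- to 2.13-fold. The reads behind it were many, 6575 to 11248 per WT sample and 6887 to 28724 per Δset2 sample. Its share of the reads on the 10 genes was 37.4% to 41.6% in WT samples and 52.1% to 58.4% in Δset2 samples. Next to it on the chromosome, SRP40 (which encodes a nucleolar protein) had a log2 change of -0.14 and RPL40B (which encodes ubiquitin fused to a ribosomal protein) one of -0.17, neither past the test (edgeR adjusted P = 0.69 and 0.38).

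DUR3 encodes the plasma membrane permease for urea, which also carries polyamines. It had 12.3, 14.9, and 10.3 CPM in the WT samples and 28.1, 23.5, and 23.0 CPM in the Δset2 samples, from 118 to 525 reads per library. The groups did not overlap, and the lowest Δset2 sample exceeded the highest WT sample by a clear margin. The log2 change was 1.002 (SE 0.15, edgeR adjusted P = 0.0052), a 2.00-fold rise with a 95% interval of 1.58- to 2.54-fold. Its neighbours YHL017W and RPS20 (the gene of a small ribosomal subunit protein) stood at log2 changes of 0.06 and -0.02 (edgeR adjusted P = 0.75 and 0.95). CUT171, a cryptic unstable transcript annotated on the opposite strand over 229 bases at the 5′ end of the DUR3 unit, was examined after its values were seen. Its reads numbered 3, 0, and 6 in WT and 7, 9, and 22 in Δset2, too few for the test. Fitted without the filter on low counts, its log2 change was 2.06 (SE 0.62, edgeR adjusted P = 0.070). Strand was ignored in counting, so reads on DUR3 and on CUT171 cannot be assigned to a strand.

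PTR2 and DUR3 passed in each of 12 other settings of the fit (scaling, filter, test, replicate term, and each sample left out). Across them, the log2 change of PTR2 ranged from 0.78 to 0.90 and that of DUR3 from 0.87 to 1.14, with adjusted P values of at most 0.033 for each gene.

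**Figure D3:**
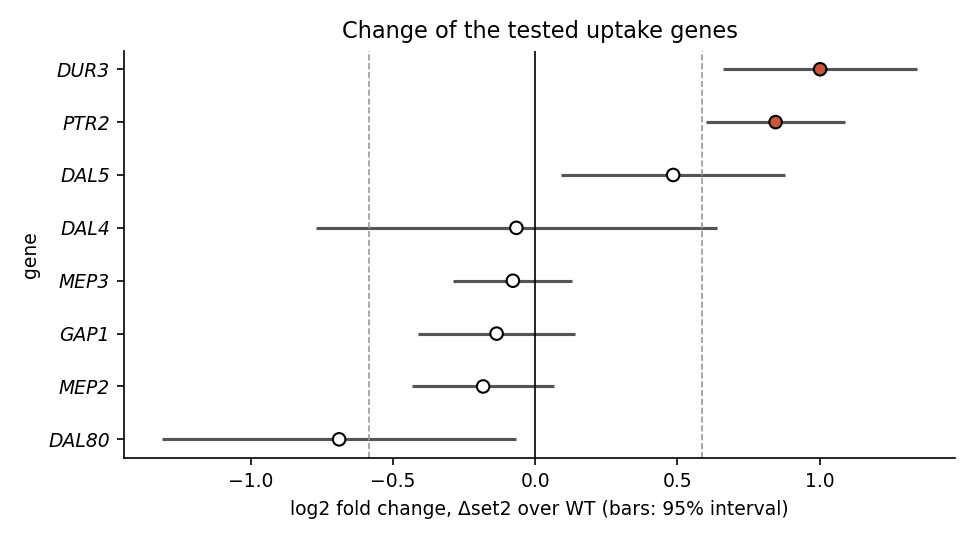
Log2 change of Δset2 over WT for the 8 tested genes, with 95% intervals (horizontal bars) from edgeR; filled points passed both thresholds, and dashed lines mark a fold change of 1.5 in either direction. PTR2 (0.85) and DUR3 (1.002) are the filled points, and the intervals of GAP1, MEP2, and MEP3 include 0 and stay inside the dashed lines.

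Of the DAL genes, DAL5 had read numbers near those of DUR3, while DAL80, DAL4, and DAL1 had few reads. DAL5, whose product takes up allantoate and also dipeptides, had 12.6, 18.9, and 13.3 CPM in the WT samples and 23.0, 16.3, and 21.8 CPM in the Δset2 samples. WT sample 2 was high and Δset2 sample 2 low, so that the groups overlapped. Its log2 change was 0.48 (SE 0.18, edgeR adjusted P = 0.13), with a 95% interval of 1.07- to 1.84-fold. Without WT sample 2 it was 0.68 and passed the thresholds (edgeR adjusted P = 0.014), while in the other 11 settings it did not (adjusted P between 0.079 and 0.37). For DAL80, which encodes a repressor that acts at GATA sites, 29, 22, and 38 reads were counted in WT and 9, 10, and 37 in Δset2. In CPM these were 2.48, 2.16, and 2.50 in WT and 0.929, 1.99, and 1.62 in Δset2, so the groups did not overlap, though WT sample 2 and Δset2 sample 2 lay close together. The log2 change was -0.69 (SE 0.28, edgeR adjusted P = 0.17), and it did not pass in any of the 12 other settings. DAL4 had 20, 15, and 22 reads in WT and 20, 4, and 31 in Δset2. Its log2 change was -0.07, with a 95% interval from -0.77 to 0.64, and leaving out single samples turned its sign. DAL1 had 11, 6, and 7 reads in WT and 4, 6, and 11 in Δset2, and a change was not detectable with so few reads.

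The abundant permease genes other than PTR2 differed by less than the fold threshold. GAP1, the broad amino acid permease that moves to the plasma membrane when nitrogen is poor, had 815, 717, and 748 CPM in the WT samples and 751, 748, and 578 CPM in the Δset2 samples. The groups overlapped, with Δset2 sample 3 lowest. The log2 change was -0.14 (SE 0.12, edgeR adjusted P = 0.55), with an interval of 0.752- to 1.10-fold. MEP2, the high-affinity ammonium permease, had 198, 218, and 164 CPM in the WT samples and 168, 174, and 169 CPM in the Δset2 samples, a log2 change of -0.18 (SE 0.11, edgeR adjusted P = 0.36). MEP3, a low-affinity ammonium permease, had 115, 108, and 99.0 CPM in the WT samples and 98.1, 105, and 101 CPM in the Δset2 samples, a log2 change of -0.08 (SE 0.09, edgeR adjusted P = 0.66). Their intervals, 0.740- to 1.05-fold for MEP2 and 0.819- to 1.09-fold for MEP3, lay within the fold threshold.

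The ratio of PTR2 to GAP1 reads within a library does not depend on the scaling of libraries. The pair was chosen after PTR2 was seen to rise and GAP1 was not, so the ratio is given as a description, with no test. There were 0.888, 0.902, and 0.989 PTR2 reads per GAP1 read in the WT samples and 1.55, 1.84, and 2.17 in the Δset2 samples. The ratio of MEP2 to MEP3 reads lay between 1.66 and 2.02 in the WT samples and between 1.65 and 1.71 in the Δset2 samples, which overlapped.

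The other genes of nitrogen use were examined in lists, whose counts are to be read against the 3.57% of all tested units that passed in either direction. No test of the lists as such was made. Of the allantoin and urea breakdown genes, 4 of 5 could be tested and 1 passed, higher. This was DUR1_2 (also written with a comma), which encodes urea amidolyase, the enzyme that breaks down the urea that DUR3 imports. It had a log2 change of 0.59 (SE 0.09, edgeR adjusted P = 0.0052), which lay just above the fold threshold. Among the fits without a replicate term, it fell under that threshold without WT sample 1 (0.57), WT sample 3 (0.56), or Δset2 sample 1 (0.55), and also with unscaled library totals (0.57) or DESeq2 (0.58). The lowest of this list was DAL7 at -0.04. The genes of this list on chromosome IX beside DAL1 and DAL4 had log2 changes of 0.18 (DAL2), -0.04 (DAL7), and 0.17 (DAL3), and none passed.

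Of the 15 genes of nitrogen assimilation and amino acid breakdown, 12 could be tested, with 2 higher and 1 lower past the thresholds. Arginine breakdown was represented by CAR1, which encodes arginase, the enzyme that releases urea from arginine, and by CAR2, which encodes ornithine transaminase. In CAR2, 18.3, 20.6, and 17.0 CPM in WT compared with 46.9, 46.6, and 39.7 CPM in Δset2, without overlap and with a log2 change of 1.25 (SE 0.12, edgeR adjusted P = 0.00041). For CAR1 the log2 change was 0.76 (SE 0.16, edgeR adjusted P = 0.024), and among the fits with a sample left out it did not pass without WT sample 1 or 3 or without Δset2 sample 1 or 3 (adjusted P between 0.078 and 0.12). CHA1, which encodes the serine and threonine deaminase, fell, from 32.7, 34.1, and 37.7 CPM in WT to 9.08, 7.77, and 7.48 CPM in Δset2, a log2 change of -2.11 (SE 0.13, edgeR adjusted P = 1.1e-05). CAR2 and CHA1 passed in each of the 12 other settings. The median over the 12 genes was 0.12.

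Among the 21 other amino acid and peptide transporter genes, 19 could be tested and 2 passed, both higher. These were PUT4, the proline permease gene, at 0.89 (SE 0.22, edgeR adjusted P = 0.043), and AGP2, which encodes a plasma membrane protein of the amino acid permease family, at 0.83 (SE 0.18, edgeR adjusted P = 0.027). Among the fits without a replicate term, neither passed without WT sample 1 or 3 or without Δset2 sample 1 or 3 (adjusted P between 0.087 and 0.16), nor did PUT4 with upper-quartile scaling (adjusted P = 0.054). The lowest was MUP1, a methionine permease gene, at -0.11, and the median was 0.05. The oligopeptide transporter genes OPT1 and OPT2, named after their values were seen, had 0 reads in every sample.

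The regulators were mostly close to the WT level. Of 12 nitrogen regulator genes 1 passed, NPR3, which encodes a subunit of the complex that restrains TORC1 when amino acids run low, with a log2 change of 0.73 (SE 0.11, edgeR adjusted P = 0.0038). The lowest was GLN3, the GATA activator gene, at -0.50 (SE 0.11, edgeR adjusted P = 0.026), past the P threshold but not the fold threshold. Its level was 40.5, 32.9, and 37.4 CPM in WT and 25.4, 26.1, and 26.6 CPM in Δset2, without overlap. The median of the list was -0.06. Of 11 regulator genes of amino acid sensing and peptide uptake, 1 passed, SSY1, the gene of the amino acid sensor, with a log2 change of 0.69 (SE 0.10, edgeR adjusted P = 0.0045). The lowest was GRR1, the gene of an F-box protein that acts below Ssy1, at -0.35 (SE 0.09, edgeR adjusted P = 0.043), again short of the fold threshold. NPR3 and SSY1 passed in each of the 12 other settings. Apart from SSY1, the regulators of PTR2 named above had log2 changes of -0.07 (CUP9), -0.18 (UBR1), -0.05 (STP1), and -0.04 (STP2). None of these passed the test (the smallest edgeR adjusted P was 0.31, for UBR1).

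**Figure D4:**
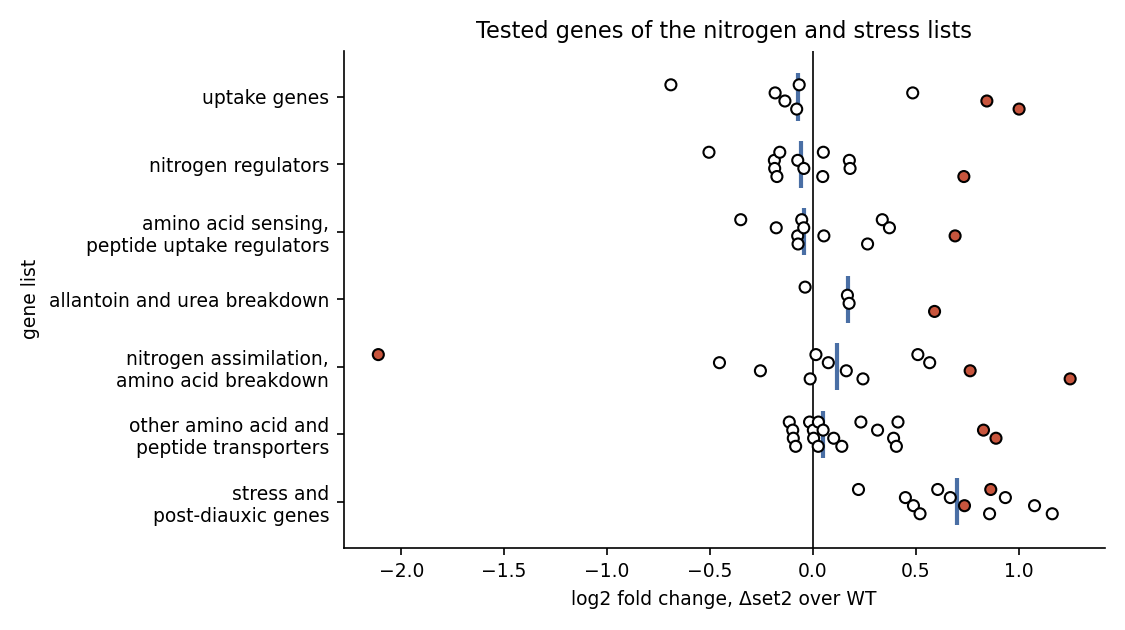
Log2 change of Δset2 over WT (horizontal axis) for each tested gene of the 10 uptake genes and of 6 further lists; filled points passed both thresholds and blue lines mark list medians. The medians of the nitrogen lists lie between -0.07 and 0.17, and that of the stress and post-diauxic list at 0.70.

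Genes of stress and of the period after glucose runs low, taken as a sign of the state of the cultures, were examined beside the results. All 12 had a log2 change above 0, with a median of 0.70, compared with 49.5% of all tested units above 0. Past the thresholds were 2 of the 12, against 3.57% of all tested units in either direction. These were HXK1 (a hexokinase gene) at 0.86 and SSA3 (a heat shock protein gene) at 0.74 (edgeR adjusted P = 0.042 and 0.010). With a sample left out, 9 of the 12 passed without WT sample 2 (373 of 5378 units over the whole table), 7 without Δset2 sample 2 (219 of 5384 units), and 0 without WT sample 3 (90 of 5361 units) or Δset2 sample 3 (80 of 5349 units), compared with 190 of 5317 units with all samples. Highest was HSP26, a small heat shock protein gene, at 1.16 (edgeR adjusted P = 0.11), and the lowest TPS2, a trehalose synthesis gene, at 0.22. Their summed level was 1024, 1569, and 1239 CPM in WT samples 1, 2, and 3 and 2244, 1424, and 2065 CPM in Δset2 samples 1, 2, and 3, so WT sample 2 lay above Δset2 sample 2. DAL5 had the same pattern, with WT sample 2 above Δset2 sample 2. Of the further nitrogen genes past the thresholds, PUT4, AGP2, and DUR1_2 had WT sample 2 highest and Δset2 sample 2 lowest in their groups. In these genes the groups did not cross, and NPR3, SSY1, CAR1, CAR2, and CHA1 lacked this order. PTR2 ran the other way within groups, since WT sample 2 was its lowest and Δset2 sample 2 its highest sample. In DUR3, WT sample 2 was the highest of its group, and Δset2 sample 2 (23.5 CPM) lay close to the lowest, Δset2 sample 3 (23.0 CPM). Sample 2 of both groups was then left out, a choice made only once these values were known. From 2 samples a group, the log2 changes were 0.72 for PTR2, 1.16 for DUR3, and 0.78 for DAL5. Each passed the thresholds, with 484 of 5400 units passing over the whole table, compared with 190 of 5317 with all samples. The samples left out were picked from the values of DAL5 and the stress genes, so passing here cannot be held as a test. The part of the stress genes in the results for PTR2, DUR3, DAL5, and the further nitrogen genes was not tested.

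**Figure D5:**
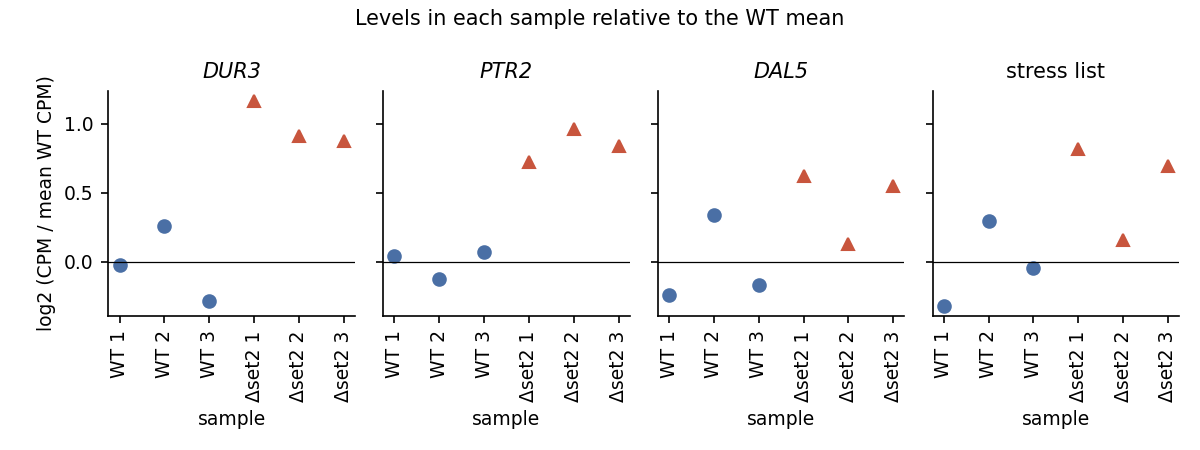
Log2 of the CPM in each sample over the mean WT CPM for DUR3, PTR2, DAL5, and the summed stress and post-diauxic genes, with WT samples as circles and Δset2 samples as triangles. WT sample 2 and Δset2 sample 2 approach or cross each other in DAL5 and in the stress list, whereas PTR2 shows its highest value in Δset2 sample 2.

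The units whose levels followed DUR3 and PTR2 most closely over the 6 samples were sought by the root mean square distance between log2 CPM profiles, each centred on its own mean. The difference between the groups enters this distance, so log2 changes near those of DUR3 and PTR2 follow from the search. Nearest to DUR3 were PMA2 (a proton pump gene), ECM10 (a mitochondrial chaperone gene), and TRR2 (a mitochondrial thioredoxin reductase gene), at distances of 0.077, 0.085, and 0.12 on the log2 scale, with log2 changes of 0.87, 0.88, and 1.06. Nearest to PTR2 were CPR2 (a cyclophilin gene), HPC2 (the gene of a subunit of the HIR histone chaperone), and MRP20 (a mitochondrial ribosomal protein gene), at 0.063, 0.079, and 0.088, with log2 changes of 0.93, 0.87, and 0.76. None of these 6 belongs to the lists above, and their group means were at most 28.2 CPM (TRR2 in Δset2).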

How the data were processed

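RNA-seq was performed in 3 WT and 3 Δset2 samples. The authors mapped reads to sacCer3 with TopHat2 2.1.0, removed reads with several genomic positions or low mapping quality, and deposited read counts per unit of the Ensembl EF4.74 annotation with added noncoding units, ignoring strand. The FPKM values deposited by the authors use the full unit length and gave the same order of the 10 genes as the full-length levels computed here. The deposited comparison columns (fold change, standard error, statistic, P value, and adjusted P value) and pooled mean were not used, and of the per-sample columns 0 went unmapped.

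Differential expression was computed from the counts with edgeR 4.0.16 in R 4.3.3, using TMM scaling, filterByExpr, and glmQLFTest of Δset2 against WT, with no replicate term. P values were adjusted (Benjamini-Hochberg) over 5317 units, and each SE is the absolute log2 change over √F. Passing meant an adjusted P under 0.05 at more than 1.5-fold. DESeq2 1.42.0, other scaling factors, no filter, a replicate block, and leaving out each sample were alternatives, and leaving out sample 2 of both groups was added after the data were seen. Levels and figures used Python 3.11.15. Coordinates are sacCer3, and 99.6% of 6008 RefSeq R64 genes matched by locus tag lay inside their unit. The fits were tested on simulated data.

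The 10 genes and the lists were chosen with earlier results of these data known. Named genes were the 10, list genes past the thresholds, the highest and lowest of each list, SET2, and the 3 nearest profiles of each gene that passed, and others are described as chosen afterwards or as neighbours and known regulators. W303 sequence differences from the reference were not examined.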

Additional observations from a re-analysis of the deposited data

How the results depend on the processing

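The calls of PTR2 and DUR3 held in all 12 other settings, and the number of the 10 genes past the thresholds was 2 in each of them except without WT sample 2, where DAL5 joined. The replicate number as a block left 75 units past the thresholds instead of 190, with PTR2 and DUR3 among them (adjusted P = 0.033 and 0.028 from edgeR). With each group centred on its own mean, the WT and Δset2 profiles correlated at -0.32 for number 1, -0.37 for number 2, and -0.13 for number 3. These values gave no sign of pairing by number. They cannot tell whether WT and Δset2 samples of the same number were handled together, and the labels give only the numbers. Under the block DUR1_2 (adjusted P = 0.062), CAR1 (0.061), AGP2 (0.12), PUT4 (0.13), HXK1 (0.17), and SSA3 (0.058) did not pass, while NPR3, SSY1, CAR2, and CHA1 did (all from edgeR). Leaving out single samples gave between 80 and 373 units, and leaving out sample 2 of both groups, chosen after the data were seen, gave 484. The log2 fold change of DAL4 lay between -0.34 and 0.065 with single samples left out and at 0.026 without sample 2 of both groups, so its sign was not stable. Among the lists, the stress and post-diauxic genes past the thresholds numbered 2, between 0 and 9 with single samples left out, and 11 without sample 2 of both groups. Few reads limit DAL1, DAL4, DAL80, and MEP1, with at most 38 in any sample, and other units cover part of the bases of each. The causes of these shifts were not tested.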
